A study of Mus musculus with 6 samples.

Results

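The Slc16a genes of the mouse encode the monocarboxylate transporter (MCT) family, whose members carry lactate, pyruvate, ketone bodies and related small molecules across the cell membrane. The family was followed here through 9 of its genes among 22180 genes measured in whole liver. The 9 genes were taken by name from rows of the array table that carry exactly 1 gene symbol, and a gene with more than 1 such row was represented by its brightest row, chosen by the mean of the 6 values. Slc16a5 itself was selected on its difference between the genotypes, since an earlier look at these same arrays had placed it among the genes that differed most, so that difference is described here and not tested. The other 8 genes, called paralogs below, were taken by their names, with earlier results of these data known. They are not the whole family, and further measured Slc16 genes are described apart below.

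Livers came from Pfn2-/- mice, which lack profilin 2, a small protein that binds actin monomers, and from wild-type mice, with 3 arrays of each genotype. All animals were of strain C57BL/6, and in each genotype replicate 1 was 9, replicate 2 was 8.5 and replicate 3 was 8 months old. The sources used here do not say how the Pfn2 allele was made or which sex the animals were. Values are RMA expression on the log2 scale, with array medians of 4.36 to 4.41, and with 3 arrays a genotype their number sets the precision. The row of Pfn2 lay at 3.88, 3.81 and 3.93 in Pfn2-/- liver, against 4.02, 3.85 and 4.09 in wild-type liver, a difference of -0.11 (SE 0.12). That row was dim in both genotypes, and which part of the transcript it covers is not given, so it does not check the labels. Defining genes of hepatocytes were bright on every array, with a mean over 7 markers of 11.23 to 11.31 in Pfn2-/- and 11.22 to 11.40 in wild-type liver. In whole tissue, fewer cells of a type and less RNA per cell cannot be told apart.

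The best known members, such as MCT1 (Slc16a1) and MCT2 (Slc16a7), move lactate, pyruvate or ketone bodies together with a proton and need a membrane partner, basigin or embigin, to reach the cell surface. In liver such carriers let lactate in for glucose production and let ketone bodies out during fasting. Other members carry other things: TAT1 (Slc16a10) moves aromatic amino acids and thyroid hormones, and the Slc16a12 product moves creatine and its precursor guanidinoacetate. The Slc16a5 product is known as MCT6, and the human protein carries drugs such as bumetanide and nateglinide when expressed in frog oocytes.

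Slc16a5 lay far lower in every Pfn2-/- liver than in any wild-type liver. The row used had log2 values of 6.48, 7.10 and 6.66 in Pfn2-/- livers, against 9.30, 9.02 and 8.25 in wild-type livers. The highest Pfn2-/- value was 1.15 below the lowest wild-type value, which came from replicate 3. The means were 6.75 ± 0.32 in Pfn2-/- and 8.86 ± 0.54 in wild type (SD, n = 3 each). The difference was -2.11 (SE 0.26, 95% interval of the limma fit -2.69 to -1.53), which is 4.32-fold lower in Pfn2-/- liver. Slc16a5 ranked 8 among the 22180 genes by the size of its difference. Since the gene was chosen for this difference, no p-value is given for it.

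A second row is named Slc16a5, and it showed the same direction. It lay at 5.49, 5.53 and 4.97 in Pfn2-/- livers, against 7.12, 6.98 and 6.63 in wild-type livers. The means were 5.33 ± 0.31 in Pfn2-/- and 6.91 ± 0.25 in wild type (SD, n = 3 each), a difference of -1.58 (SE 0.19, 95% interval -1.99 to -1.17) or 2.99-fold lower in Pfn2-/- liver. Again no Pfn2-/- array reached the wild-type range. In place of the row used, this row would rank 12 among all genes by size. Across the 6 arrays, which share the genotype split, the 2 rows had a Pearson r of 0.97. Both come from the same 6 RNA samples, so the second row is not an independent replicate of the first.

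In the numbering of the array's rows, the 2 Slc16a5 rows lie among genes of different strands. Row numbers on this array run along the chromosomes one strand at a time: of 15764 rows for which at least 9 of the 10 nearest named rows share a strand, 96.9% name a gene of that strand. Row 17271907, the brighter one that was used, sits in a run where 0 of 10 neighbouring rows name a plus-strand gene and 10 name a minus-strand gene. Row 17258220, the second one, sits in a run of 10 plus-strand and 0 minus-strand genes. The RefSeq table lists a long non-coding RNA of the minus strand, Gm11695, that overlaps Slc16a5, and no row carries that name alone. The sources used here give neither the strand of Slc16a5 nor the probes of either row, so which transcript the brighter row measures was not tested. For this reason the main results for Slc16a5 are given for both rows.

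**Figure D1:**
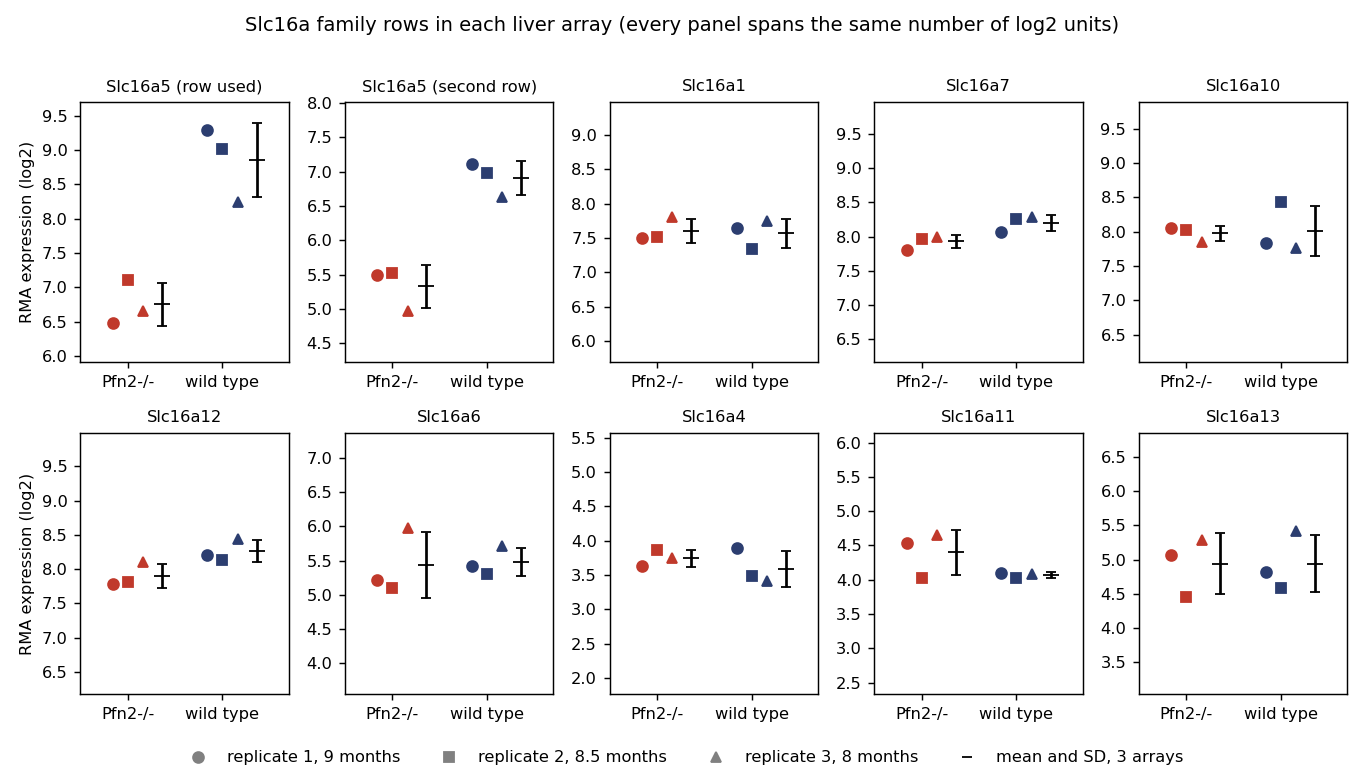
RMA expression on the log2 scale (vertical axis) of the 9 Slc16a genes, with both Slc16a5 rows, in the 3 Pfn2-/- and the 3 wild-type arrays; marker shapes give the replicate and its age, and the black bar gives the mean and SD of each genotype. Both Slc16a5 rows lie lower in all Pfn2-/- arrays, at 6.48 to 7.10 against 8.25 to 9.30 in the row used, while the other panels show shifts of at most 0.36.

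None of the 8 paralogs differed between the genotypes by limma after Benjamini-Hochberg adjustment over all genes. Their smallest adjusted p was 0.915, and 0 of 22180 genes (0.0%) passed the threshold of 0.05. Slc16a12 was the 1 paralog of 8 with an unadjusted p under 0.05, a level reached by 5.29% of all genes. Their differences ran from -0.36 to 0.33 with a median of -0.02, and the median over all genes was 0.00. The sign was positive for 3 paralogs and negative for 5. With standard errors of 0.12 to 0.25, differences of the size measured for Slc16a5 lay outside the 95% interval of every paralog. As Slc16a5 was chosen for its difference, this describes the precision for the paralogs and is no test of a contrast with them.

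Among the proton-linked carriers, Slc16a1 showed almost the same level in both genotypes. It lay at 7.50, 7.51 and 7.80 in Pfn2-/- livers, against 7.64, 7.34 and 7.74 in wild-type livers, and the groups overlapped. Its difference was 0.03 (SE 0.15, 95% interval -0.30 to 0.36, limma adjusted p = 0.996). Slc16a7, whose product has a high affinity for pyruvate and lactate, lay at 7.81, 7.97 and 8.00 in Pfn2-/- livers, against 8.07, 8.26 and 8.28 in wild-type livers. Here the groups stood side by side without overlap, but the gap between them was 0.07. The difference of Slc16a7 was -0.28 (SE 0.12, limma adjusted p = 0.920).

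The carriers of amino acids, thyroid hormones and creatine were likewise close between the genotypes. Slc16a10 lay at 8.06, 8.02 and 7.85 in Pfn2-/- livers, against 7.84, 8.44 and 7.76 in wild-type livers, with wild-type replicate 2 above all other arrays. Its difference was -0.04 (SE 0.18, limma adjusted p = 0.996). Slc16a12 lay at 7.78, 7.81 and 8.11 in Pfn2-/- livers, against 8.20, 8.13 and 8.44 in wild-type livers. Its groups did not overlap, by a margin of 0.02 between Pfn2-/- replicate 3 and wild-type replicate 2. The difference of -0.36 (SE 0.14, 95% interval -0.68 to -0.04) was the lowest of any paralog, and it did not pass (limma unadjusted p = 0.0322, adjusted p = 0.915). Slc16a7 and Slc16a12 were the 2 of 8 paralogs with lower values and no overlap in Pfn2-/- liver, against 4.76% of all genes. No paralog was higher without overlap, against 5.09% of all genes, and 9.85% of all genes lacked overlap in either direction.

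The remaining paralogs had rows that were dimmer on these arrays. Slc16a6 encodes MCT7, which exports a ketone body from the liver in zebrafish. It lay at 5.21, 5.10 and 5.98 in Pfn2-/- livers, against 5.42, 5.31 and 5.71 in wild-type livers, a difference of -0.05 (SE 0.22). Slc16a13 lay at 5.07, 4.45 and 5.29 in Pfn2-/- livers, against 4.82, 4.59 and 5.41 in wild-type livers, and both means were 4.94. Its neighbour Slc16a11, a gene whose human counterpart carries variants linked to type 2 diabetes, lay at 4.53, 4.03 and 4.65 in Pfn2-/- livers, against 4.10, 4.02 and 4.09 in wild-type livers. Pfn2-/- replicates 1 and 3 were above the wild-type range of Slc16a11 and replicate 2 was within it, and the difference of 0.33 (SE 0.17) did not pass (limma adjusted p = 0.935). Slc16a4, which encodes MCT5, lay at 3.63, 3.86 and 3.74 in Pfn2-/- livers, against 3.89, 3.48 and 3.41 in wild-type livers. The row of Slc16a4 was near or below the lower quartile of each array, 3.76 to 3.83, where a fall could hardly show.

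**Figure D2:**
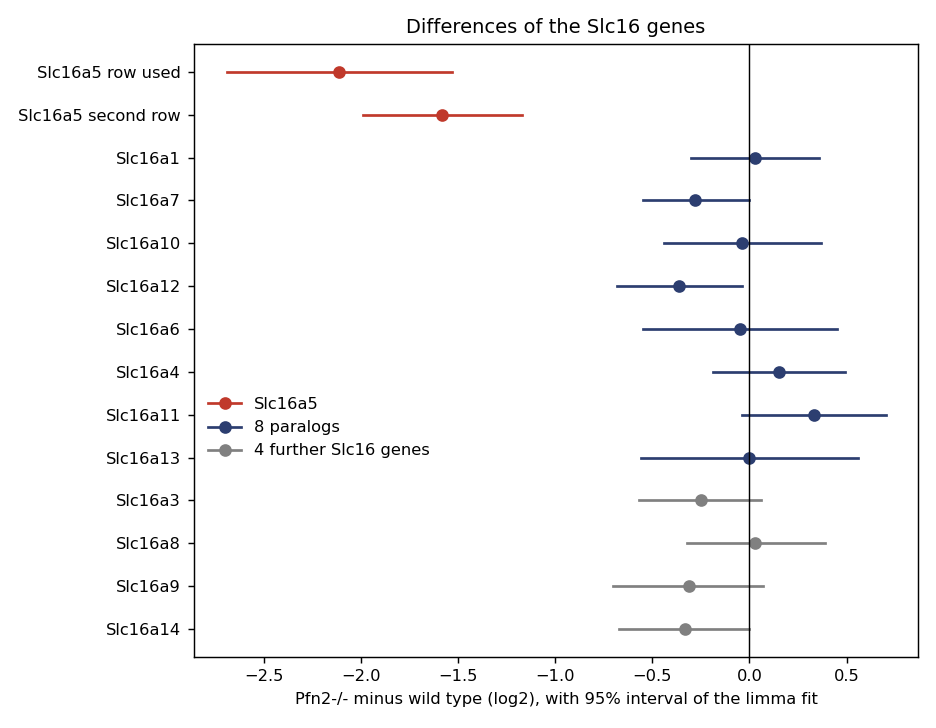
Pfn2-/- minus wild type on the log2 scale (horizontal axis) for both Slc16a5 rows, the 8 paralogs and 4 further Slc16 genes, with the 95% interval of the limma fit. Slc16a5 lies at -2.11 and -1.58 in its 2 rows, while the paralogs lie between -0.36 and 0.33.

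Within each array the level of Slc16a5 was also set against the median of its 8 paralogs, so that a shift shared by the family would cancel. Slc16a5 minus that median was 0.12, 0.79 and -0.23 in Pfn2-/- livers, against 2.77, 2.70 and 1.53 in wild-type livers. The difference between the genotypes was -2.10 for the row used and -1.57 for the second row. It includes the difference for which Slc16a5 was chosen, so it is described and not tested. The paralog median itself was 6.52 ± 0.32 in Pfn2-/- and 6.53 ± 0.20 in wild type (SD, n = 3 each). Rows of different genes respond differently to the same amount of RNA, so the change of this quantity between genotypes is meaningful here and its sign within an array is not.

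Of the other Slc16 genes, 4 were measured and none was past the adjusted threshold. Slc16a14 lay at 3.65, 3.69 and 3.59 in Pfn2-/- livers, against 3.86, 3.79 and 4.28 in wild-type livers, a difference of -0.33 (SE 0.15) in a dim row. Slc16a3, which encodes the lactate exporter MCT4, lay at 4.44, 4.11 and 4.54 in Pfn2-/- livers, against 4.70, 4.56 and 4.59 in wild-type livers, a difference of -0.25 (SE 0.14). Slc16a3 and Slc16a14 were lower without overlap, against 4.76% of all genes, and Slc16a14 was at a limma unadjusted p of 0.0499 and an adjusted p of 0.920. The mean over the 4 genes was 4.40 to 4.58 in Pfn2-/- and 4.69 to 4.78 in wild-type liver. Slc16a9 differed by -0.31 (SE 0.17) and Slc16a8, known from the retinal pigment epithelium, by 0.03 (SE 0.16). Among all 372 genes with Slc or Slco names, Slc16a5 had the largest difference in size, and it was the only 1 with a difference of 1 or more. This also holds for its second row at -1.58, from the same RNA samples. Since Slc16a5 was chosen for its difference, this rank follows from the choice and is no support for it. The next in size was Slc22a30, an organic anion transporter gene, at 0.91 (SE 0.17) and in the opposite direction.

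Genes beside Slc16a5 on chromosome 11 showed no shift of like size. The 5 nearest measured genes on each side differed by -0.14 to 0.15 with a median of -0.07. Of these 10 genes, 0 had an unadjusted limma p under 0.05, a level reached by 5.29% of all genes. With 10 genes, that count says little. Trim80, the nearest on one side, lay at 4.85, 4.60 and 4.51 in Pfn2-/- livers, against 4.59, 4.54 and 4.37 in wild-type livers. Armc7, the nearest on the other side, lay at 5.05, 5.18 and 5.13 in Pfn2-/- livers, against 5.09, 5.24 and 5.26 in wild-type livers. Cdr2l, Mrpl58, Atp5h, Kctd2, Nt5c and the pseudogene Gm11694 differed by -0.14 to -0.05, and Jpt1 and Sumo2 by 0.12 and 0.03. Jpt1 was the 1 neighbour whose groups did not overlap, against 9.85% of all genes. It lay at 5.23, 5.26 and 5.28 in Pfn2-/- livers, against 5.13, 5.15 and 5.13 in wild-type livers.

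**Figure D3:**
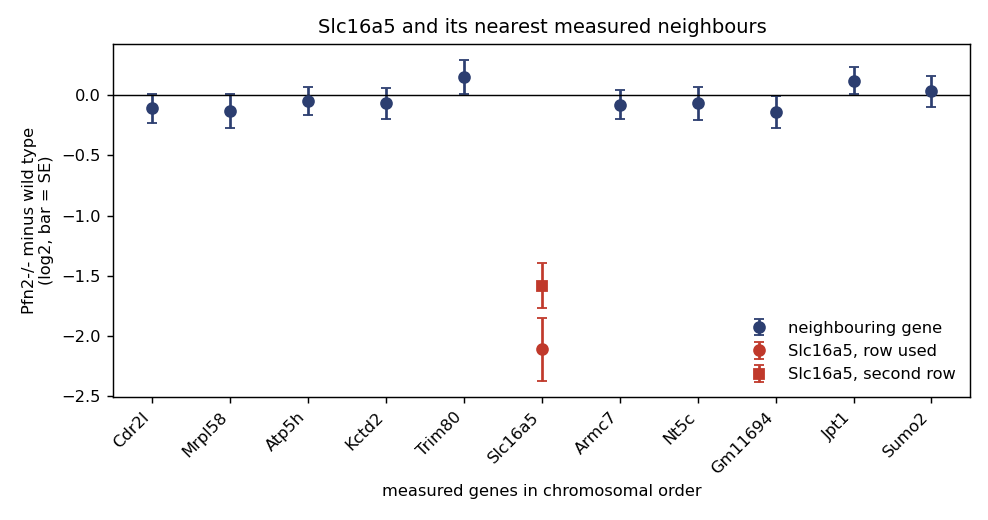
Pfn2-/- minus wild type on the log2 scale (vertical axis, bars are the SE of the limma fit) for Slc16a5 and the 5 nearest measured genes on each side, in chromosomal order. Both Slc16a5 rows lie below -1, while the 10 neighbours lie between -0.14 and 0.15.

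Within each genotype the family showed a second pattern, in which the 8-month-old animal, replicate 3, often had the highest value. This held in both genotypes for 5 of the 9 genes, against 12.0% of all genes, and the 5 were Slc16a1, Slc16a6, Slc16a7, Slc16a12 and Slc16a13. The pattern was noticed after the values were seen. Replicate 3 exceeded the mean of replicates 1 and 2 by 0.83 in Pfn2-/- and 0.34 in wild type for Slc16a6. The excess was 0.53 in Pfn2-/- and 0.71 in wild type for Slc16a13, and 0.31 in Pfn2-/- and 0.28 in wild type for Slc16a12. It was 0.29 in Pfn2-/- and 0.25 in wild type for Slc16a1, and 0.11 in Pfn2-/- and 0.12 in wild type for Slc16a7. Slc16a5 lay the other way, with replicate 3 at -0.13 in Pfn2-/- and -0.91 in wild type relative to the mean of replicates 1 and 2. In its second row the values were -0.54 in Pfn2-/- and -0.42 in wild type, below 0 in both genotypes as well. Slc16a5 was not alone in this, since Slc16a10 lay at -0.19 in Pfn2-/- and -0.38 in wild type. Slc16a4 lay at 0.00 in Pfn2-/- and -0.27 in wild type. Each age is 1 animal per genotype, so age and animal cannot be told apart.

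**Figure D4:**
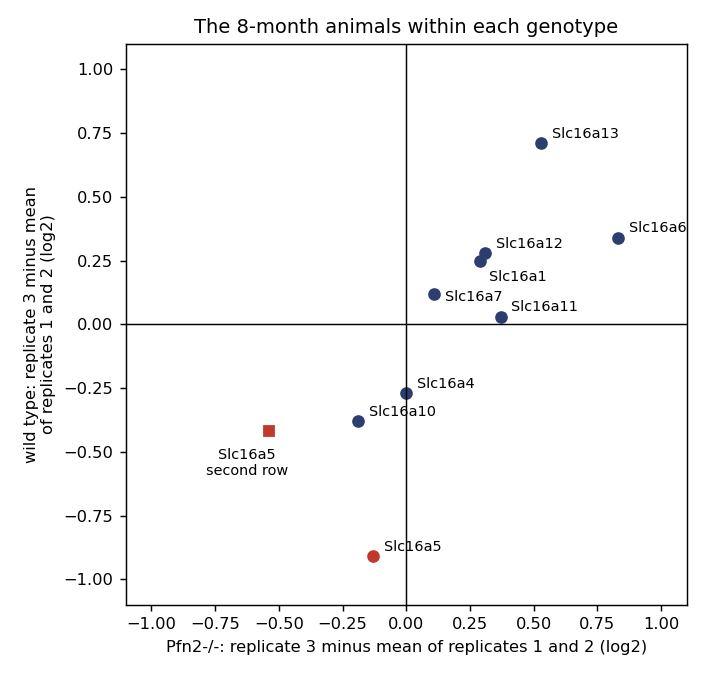
Replicate 3 (8 months) minus the mean of replicates 1 and 2 on the log2 scale, in Pfn2-/- liver (horizontal axis) and wild-type liver (vertical axis), for the 9 Slc16a genes with the row used. Slc16a1, Slc16a6, Slc16a7, Slc16a12 and Slc16a13 lie above 0 on both axes, as does Slc16a11, whose highest wild-type value was in replicate 1. Slc16a5 (red) lies at -0.13 and -0.91 in the row used (circle) and at -0.54 and -0.42 in its second row (square). Slc16a10 also lies below 0 on both axes, at -0.19 and -0.38.

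Promoter windows from RefSeq (build GRCm38.p6, 250 bases before to 50 after the gene's start) were matched by symbol for 5 of the 9 genes, namely Slc16a1, Slc16a4, Slc16a10, Slc16a11 and Slc16a12. Slc16a5, Slc16a6, Slc16a7 and Slc16a13 had no entry. The 2 windows shown belong to Slc16a1 and Slc16a12, the members with an entry whose values were highest in replicate 3 of both genotypes. That pattern was noticed after the values were seen. Slc16a6, Slc16a7 and Slc16a13 share it but have no window, so whether any motif goes with the pattern was not tested. Capitals mark the E-box CACGTG, a palindrome that reads the same on both strands. The Slc16a1 window is chr3:104638414-104638713 on the plus strand and the Slc16a12 window is chr19:34747279-34747578 on the minus strand.
Slc16a1: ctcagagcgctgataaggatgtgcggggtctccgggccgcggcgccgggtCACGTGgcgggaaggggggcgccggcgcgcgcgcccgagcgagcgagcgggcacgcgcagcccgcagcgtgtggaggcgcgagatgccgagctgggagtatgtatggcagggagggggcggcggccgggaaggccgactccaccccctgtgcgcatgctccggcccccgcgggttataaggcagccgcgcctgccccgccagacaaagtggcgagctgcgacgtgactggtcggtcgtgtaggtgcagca
Slc16a12: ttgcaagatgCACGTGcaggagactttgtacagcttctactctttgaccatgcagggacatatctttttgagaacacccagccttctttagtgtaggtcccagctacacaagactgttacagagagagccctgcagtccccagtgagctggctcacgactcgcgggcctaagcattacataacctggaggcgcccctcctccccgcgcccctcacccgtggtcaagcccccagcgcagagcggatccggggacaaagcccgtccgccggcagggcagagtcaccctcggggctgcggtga
The E-box begins 200 bases before the start of Slc16a1 and 240 bases before that of Slc16a12. It was in neither strand of the Slc16a4, Slc16a10 and Slc16a11 windows, and 7.15% of the 32851 windows in the table hold it. Of the other motifs searched on both strands, AGGTCA, a nuclear receptor half-site, was in none of the 5 windows, against 16.3% of all windows. GGGCGG was in the windows of Slc16a1 and Slc16a10, against 35.7%, and TATAA in those of Slc16a1 and Slc16a4, against 24.9%. These are matches of letters and show no binding.

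The genes most like Slc16a5 across the 6 arrays were sought among 11087 genes with a mean above the median, by Pearson r over the 6 arrays with the row used. The 5 highest were Herc2, a ubiquitin ligase gene (0.995), the leptin receptor gene Lepr (0.981), Eif4enif1 (0.981), the small proteoglycan gene Ogn (0.979) and Nudt19 (0.978). In all, 138 of these genes had an r of 0.9 or more, and all such values rest largely on the split between the genotypes. With the second row 136 genes had an r of 0.9 or more, of which 79 had it with both rows. The order changed, with Herc2 at 0.96 and rank 21, Lepr at 0.945 and rank 44, and Tle4, a transcriptional corepressor gene, first at 0.993. Lepr lay at 3.99, 4.94 and 4.21 in Pfn2-/- livers, against 6.45, 6.77 and 5.74 in wild-type livers, so like Slc16a5 it was highest in replicate 2 of Pfn2-/- and lowest in replicate 3 of wild type. Herc2 followed the same order with a much smaller difference of -0.23 (SE 0.11). Among the paralogs r with Slc16a5 ran from -0.73 for Slc16a11 to 0.74 for Slc16a7 with the row used, and from -0.75 to 0.71 for the same 2 genes with the second row.

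Genes that handle the substrates of the family, or partner it, were read from 10 lists, and 0 of their 103 measured genes passed the adjusted threshold by limma. An unadjusted p under 0.05 was reached by 12 of them (11.7%), of which 5 were higher and 7 lower in Pfn2-/- liver, against 5.29% of all genes and 5.94% of those with a mean above the median. The lists were chosen with earlier results of these data known, so this share is a description and no test. The membrane partners of the carriers were level: basigin (Bsg) lay at 9.24, 8.91 and 9.18 in Pfn2-/- livers, against 9.16, 9.21 and 9.22 in wild-type livers. Embigin (Emb) differed by 0.09 (SE 0.14) and neuroplastin (Nptn) by 0.00 (SE 0.12). The sodium-coupled monocarboxylate transporter genes Slc5a8 and Slc5a12 were dim and differed by -0.06 (SE 0.12) and 0.15 (SE 0.17).

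Of 23 measured enzymes and carriers of lactate and pyruvate, 19 had values below 0 in the difference and 4 above. Their median was -0.15, against 0.00 over all genes, and 3 were lower at an unadjusted p under 0.05 (2.62% of all genes were). The mean over the 23 genes overlapped between the genotypes, at 7.49 to 7.65 in Pfn2-/- and 7.63 to 7.93 in wild-type liver. Gpt2, which interconverts alanine and pyruvate in mitochondria, lay at 9.61, 9.41 and 9.69 in Pfn2-/- livers, against 10.14, 10.04 and 10.00 in wild-type livers. Its groups did not overlap, with a difference of -0.49 (SE 0.13, limma adjusted p = 0.746). Dlat, a core subunit of the pyruvate dehydrogenase complex, lay at 6.78, 6.54 and 6.69 in Pfn2-/- livers, against 6.95, 7.10 and 7.46 in wild-type livers. Its difference was -0.50 (SE 0.15, limma adjusted p = 0.814). Pdk3, a kinase that inhibits that complex, differed by -0.38 (SE 0.16), and Pdhb, another subunit gene of the complex, by -0.37 (SE 0.18) with wild-type replicate 3 at 10.07 above the other arrays.

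Of 8 measured genes of ketone bodies and acetate, 0 were at an unadjusted p under 0.05 and the median difference was -0.08. The acetate-activating enzyme gene Acss2 lay at 8.33, 7.93 and 7.51 in Pfn2-/- livers, against 7.49, 8.24 and 10.06 in wild-type livers, so its difference of -0.67 (SE 0.52) came with 1 high wild-type array. Of 18 measured genes of the nuclear receptor PPAR alpha and its targets, which fasting switches on in liver, 1 was higher and 2 were lower at an unadjusted p under 0.05, against 2.67% of all genes higher and 2.62% lower, with a median of -0.01. The pantetheinase gene Vnn1 differed by 0.69 (SE 0.23), the peroxisomal enzyme gene Ehhadh by -0.45 (SE 0.17) and the thioesterase gene Acot1 by -0.48 (SE 0.18). Cyp4a14 differed by -0.97 (SE 0.45), with overlapping groups. It lay at 7.39, 8.77 and 9.61 in Pfn2-/- livers, against 9.87, 9.68 and 9.13 in wild-type livers.

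Of 17 measured genes of thyroid hormone transport and response, 3 were higher and 1 lower at an unadjusted p under 0.05. Of all genes 2.67% were higher and 2.62% lower at that level. The median difference of the list was 0.13. Slco1b2, an uptake carrier of hepatocytes, lay at 11.56, 11.29 and 11.32 in Pfn2-/- livers, against 10.81, 10.87 and 11.15 in wild-type livers. Its groups did not overlap (difference 0.45, SE 0.14, limma adjusted p = 0.825). The deiodinase gene Dio2 differed by 0.55 (SE 0.14) in a dim row and the amino acid carrier gene Slc7a5 by 0.41 (SE 0.16). The lipogenic response gene Thrsp differed by -0.80 (SE 0.35). Its groups overlapped, and wild-type replicate 3 at 10.59 was above the other arrays. Of 14 measured genes of aromatic amino acids, which TAT1 carries, 1 was at an unadjusted p under 0.05, against 5.29% of all genes. It was Slc7a5 again, and the aminotransferase gene Tat differed by -0.27 (SE 0.14). Slc7a8 and Afmid differed by 0.36 (SE 0.20) and -0.22 (SE 0.13).

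Of 7 measured genes of creatine, the cargo of the Slc16a12 product, 0 were at an unadjusted p under 0.05. The synthesis gene Gatm differed by 0.26 (SE 0.23) and Gamt, which completes the synthesis, by -0.10 (SE 0.15). Ckm and Ckmt2 differed by 0.21 (SE 0.14) and 0.13 (SE 0.13). Of 11 measured genes of carnitine, which the human SLC16A9 product exports, 1 was higher at an unadjusted p under 0.05, against 2.67% of all genes, namely the peroxisomal acyltransferase gene Crot. It lay at 10.85, 10.57 and 10.82 in Pfn2-/- livers, against 10.08, 10.21 and 9.79 in wild-type livers, without overlap, and it did not pass (limma adjusted p = 0.621). The carnitine uptake gene Slc22a5 differed by -0.28 (SE 0.21), Slc22a4 by -0.30 (SE 0.17) and Cpt1a by -0.21 (SE 0.16).

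**Figure D5:**
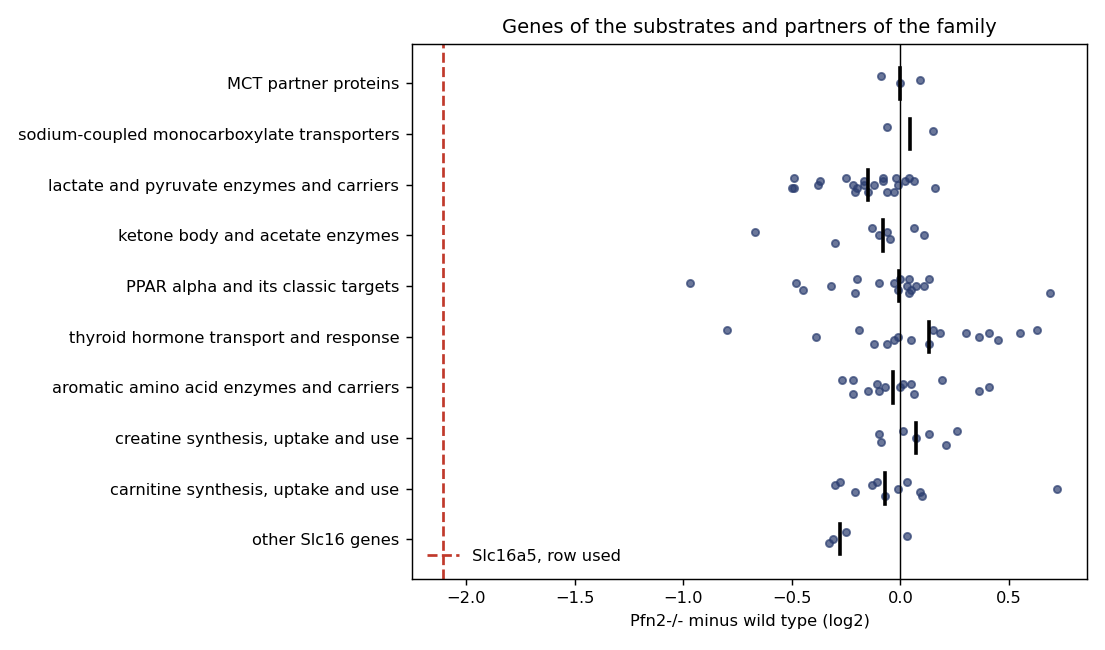
Pfn2-/- minus wild type on the log2 scale (horizontal axis) for each measured gene of 10 lists (rows), with the list median as a black bar and the Slc16a5 row used as a dashed line at -2.11. The lowest list gene is Cyp4a14 at -0.97, whose groups overlapped. The medians run from -0.28 for the other Slc16 genes to 0.13 for thyroid hormone genes.

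Markers of other cell types in liver showed no difference of the size seen for Slc16a5, a wide bar since that gene was chosen for its difference. The mean over 6 Kupffer cell markers was 7.50 to 7.59 in Pfn2-/- and 7.32 to 8.02 in wild-type liver. That over 6 sinusoidal endothelial markers was 7.52 to 7.74 in Pfn2-/- and 7.54 to 8.00 in wild-type liver. Of these 6, 5 differed below 0 and 1 above. The largest was Lyve1 at -0.74 (SE 0.61), with overlapping groups. Stab1 at -0.18 (SE 0.12) was lower without overlap, against 4.76% of all genes. For 6 stellate cell markers the median difference was -0.07, with 4 below 0 and 2 above. The 4 measured cholangiocyte markers were the only list of cell type markers whose means did not overlap, at 4.91 to 5.09 in Pfn2-/- and 4.81 to 4.90 in wild type. Of all single genes, 9.85% lacked overlap in either direction. Among these markers Sox9 differed by 0.58 (SE 0.20, limma adjusted p = 0.895), while Krt19, Krt7 and Epcam were dim and differed by 0.05, 0.02 and -0.10. The lists of lymphocyte, neutrophil, pancreas acinar and adipocyte markers had means of 3.56 to 4.69 on all arrays, and erythroid markers were not analysed here. What part cell types have in the Slc16a5 difference was not tested.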

How the data were processed

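RNA of 6 mouse livers, 3 Pfn2-/- and 3 wild type, was measured on Affymetrix arrays. Per the labels' protocols, total RNA was extracted with Trizol and labelled by the GeneChip WT PLUS assay. The tools named per the submitters' processing notes are RMA and limma, with no version. The authors deposited log2 expression values for 34390 rows. RMA quantile normalizes arrays to each other, which removes shifts shared by all genes. Differences of dim rows can be compressed in such values.

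Rows with exactly 1 gene symbol in the platform annotation (23521) were used, with the row of highest mean kept per gene, which left 22180 genes. The comparison of genotypes used limma 3.58.1 under R 4.3.3 (lmFit and eBayes, genotype as the sole term, two-sided), with Benjamini-Hochberg adjustment over all genes and a threshold of 0.05. The fit was tested on simulated data. Intervals are at 95%. Gene order and promoter windows came from RefSeq tables of GRCm38.p6, used for names, order and sequences only.

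The members, lists and named genes were chosen with earlier results of these data known. Named genes are all members, up to 4 genes of smallest p per list and all genes of lists of up to 5, the 5 nearest measured genes on each side of Slc16a5, and the 5 genes most like it. Protein sequences were not used here. Alternatives were other normalizations, other rows for a gene, filters on dim genes, the trend and robust options of eBayes, array weights, a replicate block, and fits that leave out 1 array.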

Additional observations from a re-analysis of the deposited data

How the results depend on the processing

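The Slc16a5 difference, for which the gene was chosen, kept its sign under all 18 alternatives, but several of these cannot change it. It stays at -2.11 with the filters, the trend and robust options of eBayes and the replicate block. The row of highest variance was the row used. The difference was -1.58 with the second row, an alternative chosen after the data were seen, and -1.84 with the mean of both rows. It was -2.29 with array weights and -2.41 to -1.89 when single arrays were left out. In the second row it was -1.72 to -1.40 when single arrays were left out, also chosen after the data were seen. Relative to the paralog median it ranged from -2.50 to -1.57. No paralog and no list gene passed the adjusted threshold under any of the 17 alternatives run for them.

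Over all genes, the count past the adjusted threshold was 7 with the replicate block, 2 with array weights and 0 to 6 without single arrays, the highest without wild-type replicate 3. The count at an unadjusted p under 0.05 was 1174, and 682 with the filter at the median, which tests fewer genes. Same-numbered arrays share an age in the labels. Their deviations from the genotype means correlated at -0.082, 0.155 and 0.02. They were not treated as pairs in the main fit, though such correlations cannot show that pairing is absent. Between same-numbered arrays (replicates 1, 2 and 3), Slc16a7 differed by -0.26, -0.29 and -0.28, and Slc16a12 by -0.42, -0.32 and -0.33. Slc16a11 was above 0 in each, and the other paralogs changed sign. The limma adjusted p with the replicate block was 0.887 for Slc16a7 and 0.84 for Slc16a12. With the replicate block the Slc16a5 difference was -2.11, since a block cannot change a difference in this balanced design.

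Paralogs near 0 changed sign. Slc16a13 was at 0.00 with median centring, 0.01 with repeated quantile normalization and with cyclic loess, 0.09 with array weights, and -0.18 to 0.24 without single arrays. Leaving out single arrays gave -0.09 to 0.11 for Slc16a1 (negative without Pfn2-/- replicate 3 or wild-type replicate 2), -0.16 to 0.18 for Slc16a10 (positive without the same 2 arrays) and -0.33 to 0.12 for Slc16a6 (positive without Pfn2-/- replicate 1 or 2 or wild-type replicate 3). Slc16a13 was positive without Pfn2-/- replicate 2 or wild-type replicate 3. The cause was not tested. Slc16a7, Slc16a12, Slc16a11 and Slc16a4 kept their signs in every alternative that held them, though several, such as the filters, cannot change a difference. Slc16a11 ranged from 0.21 without Pfn2-/- replicate 3 to 0.52 without Pfn2-/- replicate 2, and Slc16a4 from 0.06 without wild-type replicate 3 to 0.30 without wild-type replicate 1.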
